A study of Mus musculus with 18 samples.

Results

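A set of 10 mRNAs encoding large chromatin regulators was followed through polysome gradients of mouse embryonic stem cells (ESCs): Chd1, Chd2, Chd4, Chd7, Chd8, Chd9, Smarca4, Smarca5, Kmt2a and Kmt2d. They were chosen by name, as chromatin remodeller genes with long coding sequences, at a time when earlier results of these data were known. They are 10 of the 51467 genes in the count table and 10 of the 12705 genes that passed the filter on low counts, which asked for at least 3 CPM, that is reads scaled to the size of the library, in 3 or more libraries. All 10 members passed it. The cells were V6.5 ESCs grown in serum with LIF and the inhibitors PD0325901 and CHIR99021, and both genotypes shared these conditions. Wild-type (WT) cells were compared with cells in which Ddx6, which encodes an RNA helicase of translational repression and mRNA decay, had been disrupted by CRISPR (Ddx6 KO). Cycloheximide was used to hold ribosomes on their mRNAs, and each sucrose gradient was divided into a monosome, a low polysome (2 to 4 ribosomes) and a high polysome (4 or more ribosomes) fraction. There were 3 gradients for each genotype, so 18 libraries formed 6 groups of 3. The KO line is represented by 2 clones, with gradient 1 from clone 1 and gradients 2 and 3 from clone 2. No label states that gradients of a genotype came from separate cultures, so p-values measure the spread between these gradients, which may be technical. The main fit took the 3 KO gradients as separate replicates and did not pair the fractions of a gradient. The calls therefore cannot be extended beyond these 2 clones.

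Chromatin remodellers use ATP to slide, evict or exchange nucleosomes, and in pluripotent cells they keep much of the genome accessible to transcription factors. The CHD proteins carry paired chromodomains beside a Snf2-type ATPase, SMARCA4 and SMARCA5 are the motors of the BAF and ISWI complexes, and KMT2A and KMT2D are not remodelling motors but histone H3 lysine methyltransferases of COMPASS-like complexes. Because a ribosome occupies a short stretch of an mRNA, a long coding sequence has room for many ribosomes, and well-translated long mRNAs are found deep in a polysome gradient.

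Total gene counts were 2543617 to 11474550 per library, with WT monosomes the shallowest (2543617 to 4894677) and KO monosomes at 7537656 to 7811071. The members took 0.0594% to 0.229% of the counts of a library. A single member had 18 counts (Chd7 in a WT monosome library) to 15320 counts (Chd4 in a KO high polysome library), so the low values of Chd7, Chd9 and Kmt2d in monosomes are the least precise. Ddx6 itself stood at 143 to 212 CPM in WT, at 55.3 to 82.7 CPM in clone 1 and at 9.68 to 26.7 CPM in clone 2. The 3′ reads lie away from the edited exon, so the RNA level is no direct check of the lesion, and the levels of Ddx6 differed between the clones. In the paper, sequencing found a lesion with a premature stop in both clones, and neither had DDX6 protein on a western blot. All 10 ESC markers examined were at 3 CPM or more in every library. Summed primed epiblast markers were 103 to 149 CPM in WT and 32.7 to 80.4 CPM in KO, with Fgf5 at 0 in all libraries, and their part in the results was not tested. The summed markers of feeder fibroblasts (4.65 to 11.1 CPM), endoderm (1.99 to 8.91 CPM) and mesoderm (0.900 to 3.08 CPM) were low in every library, while the neural list, led by Nes and Sox1, stood at 30.7 to 76.2 CPM.

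The members span a wide range of coding length, taken as the longest coding sequence annotated in Gencode M21 on GRCm38 (mm10). Chd1 (ENSMUSG00000023852.14, chr17:15704967-15772610, plus strand), a reader of methylated histone H3 at active genes, has 5136 nt. Its close relative Chd2 (ENSMUSG00000078671.11, chr7:73426638-73541830, minus strand) has 5484 nt. Chd4 (ENSMUSG00000063870.12, chr6:125095981-125130591, plus strand), the ATPase of the NuRD complex that joins remodelling to histone deacetylation, has 5769 nt. Chd7 (ENSMUSG00000041235.12, chr4:8690406-8867659, plus strand), the gene mutated in CHARGE syndrome, has 8961 nt. Chd8 (ENSMUSG00000053754.14, chr14:52198151-52257780, minus strand), a promoter-bound remodeller mutated in some people with autism, has 7749 nt. Chd9 (ENSMUSG00000056608.14, chr8:90828352-91054516, plus strand), of the same subfamily as Chd7 and Chd8, has 8658 nt. Smarca4 (ENSMUSG00000032187.16, chr9:21616169-21704230, plus strand), which encodes the BAF motor BRG1, has 4854 nt. Smarca5 (ENSMUSG00000031715.14, chr8:80698507-80739497, minus strand), which encodes the ISWI motor SNF2H, is the shortest at 3156 nt. Kmt2a (ENSMUSG00000002028.13, chr9:44803355-44881296, minus strand), also known as MLL1, has 11901 nt. Kmt2d (ENSMUSG00000048154.17, chr15:98831669-98871204, minus strand), which encodes an enhancer methyltransferase, is the longest at 16767 nt. Among the tested genes with a coding length, Smarca5 lies at percentile 87.6 and the other 9 members at percentile 95.5 or above, so the name long fits every member by this measure. Chd2, Chd4, Chd8, Chd9, Smarca4, Smarca5 and Kmt2a each overlap at least 1 other annotated gene on their own strand, so a share of reads at those loci could not be assigned with certainty.

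The study followed targets of the ESCC miRNAs, the family that dominates ESCs and whose silencing works through complexes that hold DDX6, so the annotated 3′ UTRs of the members were searched for its sites on the transcript strand. The mature miR-294-3p, from RefSeq on GRCm38.p6, is encoded at chr7:3220691-3220712 on the plus strand and is shown with its seed, bases 2 to 8, in capitals. The sites searched were the 8mer AGCACTTA, the 7mer-m8 AGCACTT and the 7mer-A1 GCACTTA, and both 7mers lie within the 8mer, so a gene with the 8mer holds all of them. The 4 matches found are printed in transcript direction with the matched letters in capitals, to show which members could pair with the seed and how closely the Kmt2a matches lie together.
miR-294-3p: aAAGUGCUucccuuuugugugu
Kmt2a 8mer, chr9:44806501-44806530, minus strand: tcatagggagaAGCACTTAtgacgaggcta
Kmt2a 7mer-m8, chr9:44806519-44806547, minus strand: tttctatttgaAGCACTTcatagggagaa
Chd2 7mer-m8, chr7:73429501-73429529, minus strand: gcagctgaaggAGCACTTgaaggagtcgg
Chd2 7mer-m8, chr7:73429609-73429637, minus strand: ggaagtcatcaAGCACTTgggcgttctgc

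Kmt2a held the 8mer and, just upstream in the transcript, a 7mer-m8, whose printed windows overlap. Chd2 held a pair of 7mer-m8 matches. The other 8 members held none of these letters in their annotated 3′ UTRs. Of 11746 tested genes with a searched 3′ UTR, 3.77% held the 8mer, 18.5% the 7mer-m8 and 8.67% the 7mer-A1. A match is a description of the sequence and not a measured site.

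Levels are given as CPM after TMM scaling. Each read marks a transcript's 3′ end, so CPM was not divided by length, and within a library the values compare numbers of transcripts. Between fractions they compare shares of a library and not amounts of mRNA. Chd4 was by far the most abundant member, with a mean of 614 CPM over the 18 libraries, and its lowest library (285 CPM) lay above the highest library of any other member (207 CPM, Smarca4). Means then ran through Smarca4 (116 CPM), Kmt2a (97.8 CPM), Chd8 (90.3 CPM), Smarca5 (78.5 CPM), Chd1 (63.7 CPM), Chd2 (52.7 CPM), Kmt2d (34.7 CPM), Chd9 (17.9 CPM) and Chd7 (15.2 CPM), and from Smarca4 down the ranges of neighbours in this order overlapped. Added together, the members stood at 666 ± 7.90 CPM (SD, n = 3) in WT monosomes, 1289 ± 298 CPM in WT low polysomes and 1144 ± 186 CPM in WT high polysomes. In KO the sums were 591 ± 14.5 CPM in monosomes, 1238 ± 130 CPM in low polysomes and 2162 ± 311 CPM in high polysomes. The WT sum was therefore similar in low and high polysomes within its spread, whereas in KO all 3 high polysome libraries (1809, 2279 and 2397 CPM) lay above all 3 low polysome libraries (1145, 1386 and 1181 CPM). Chd4 alone gave 586 ± 121 CPM of the WT high polysome sum and 1385 ± 239 CPM of the KO one.

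**Figure D1:**
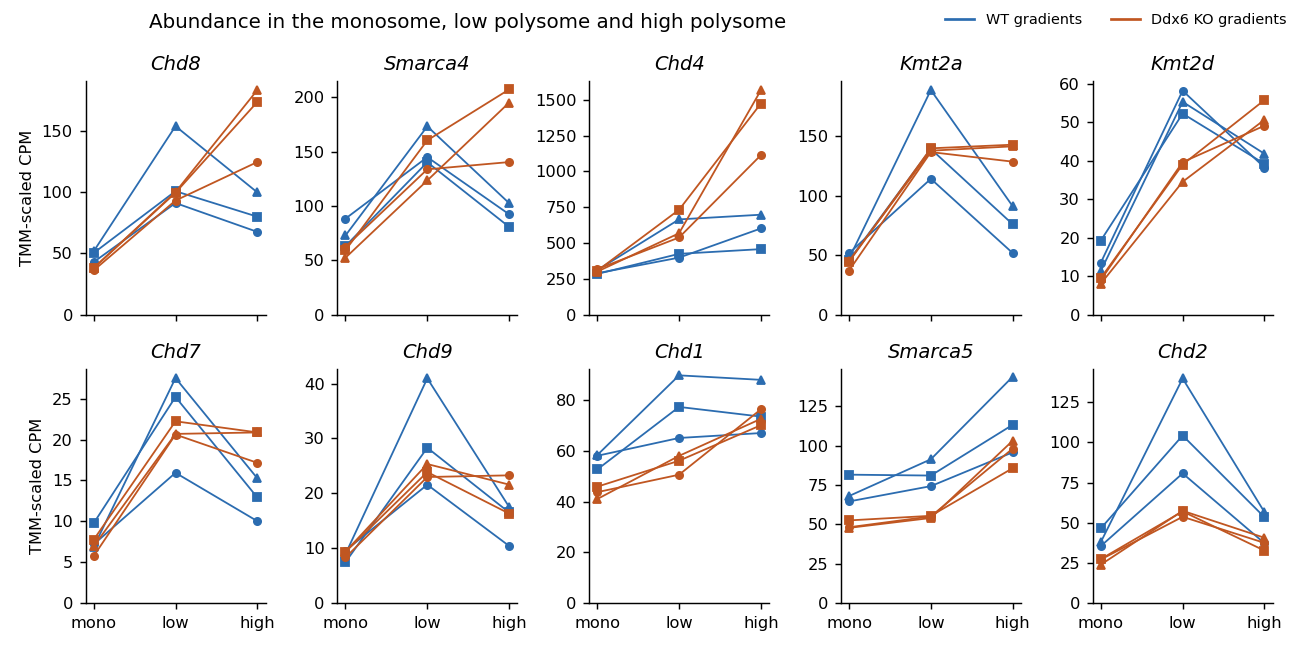
TMM-scaled CPM (linear axes from 0) of each of the 10 mRNAs across the fractions (mono, low and high), with 1 line for each of the 3 WT (blue) and 3 Ddx6 KO (orange) gradients and circles, squares and triangles for gradients 1, 2 and 3. In WT most lines peak in the low polysome, and all KO lines of Chd8, Smarca4, Chd4, Kmt2d, Chd1 and Smarca5 go on rising into the high polysome. For Chd4 and Smarca5 the WT lines are also highest there.

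The first comparison asked where these mRNAs sit in WT cells. The high polysome over monosome ratio is called the translation level here, and in WT it was above 1 on average for all 10 members, with 8 called higher in the high polysome (limma, with p adjusted for the 12705 genes by Benjamini-Hochberg and a threshold of 0.05). The share of all genes called in that direction was 28.9%. It was 36.9% for a coding length over 5000 nt and 19.5% for 3000 to 5000 nt. The median log2 ratio was 0.69 over the members against -0.018 over all genes. Kmt2d had the highest ratio, at log2 1.46 (SE 0.17, limma adjusted p = 4.46e-07). Chd4 followed at 0.97 (SE 0.18, adjusted p = 0.000129). Chd2 (0.28, SE 0.20, adjusted p = 0.241) and Smarca4 (0.32, SE 0.17, adjusted p = 0.105) were not called. The calls for Chd1, Chd7, Chd9 and Kmt2a were lost without WT gradient 2 and also without WT gradient 3, which left 4 members called each time.

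The high over low polysome ratio was below 1 in all 3 WT gradients for 7 of the 10 members. The same held for 40.6% of all genes tested and for 52.3% of the 1618 tested genes with a coding length over 3000 nt. For Chd2, the most extreme, the log2 ratios were -1.11, -0.96 and -1.30 in gradients 1 to 3. For Kmt2a they were -1.13, -0.87 and -1.05, and for Chd9 -1.02, -0.76 and -1.20. Chd4 (0.59, 0.11 and 0.069) and Smarca5 (0.36, 0.48 and 0.65) were the 2 members above 1 in every WT gradient, and Chd1 lay close to 1 (0.042, -0.073 and -0.029). The ratios of different genes come from the same 6 libraries and are not independent of each other.

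In KO all 10 members were called enriched in the high polysome relative to the monosome, where 35.0% of all genes were called in that direction. The share was 73.6% for genes with a coding length over 5000 nt and 47.9% for those of 3000 to 5000 nt. Log2 ratios ran from 0.50 (SE 0.19, limma adjusted p = 0.0290) for Chd2 to 2.53 (SE 0.16, adjusted p = 5.10e-11) for Kmt2d. The call for Chd2 was lost without KO gradient 1 (adjusted p = 0.0932) or without KO gradient 3 (adjusted p = 0.208). The change of this ratio between genotypes, the interaction term of the model, was positive for all 10 members, and 5 of them passed the test as raised: Chd8, Smarca4, Chd4, Kmt2a and Kmt2d. None was called lowered. Over all genes, 10.7% were called raised and 7.09% lowered, and the median change was 0.96 over the members and 0.022 over all genes. For 7 members, all but Chd2, Chd9 and Smarca5, the 3 KO gradients lay above the 3 WT gradients, a pattern met by 21.2% of all genes. With 3 gradients against 3, an exact permutation test of 1 gene cannot give a p below 0.1, so the calls rest on the model fitted across all genes.

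Chd8 changed most. Its log2 translation level was 0.65, 0.66 and 0.94 in WT gradients 1 to 3, and 1.77, 2.17 and 2.25 in KO gradients 1 to 3. The groups did not overlap, and the change was 1.34 (SE 0.27, limma adjusted p = 0.00312), or 2.52-fold. Smarca4, the BAF motor, stood at 0.064, 0.35 and 0.49 in WT and at 1.16, 1.80 and 1.88 in KO. Its groups were well apart, with a change of 1.30 (SE 0.23, limma adjusted p = 0.00120), or 2.46-fold. Chd4, the NuRD motor, stood at 1.05, 0.68 and 1.16 in WT and at 1.81, 2.26 and 2.38 in KO, again without overlap. Its change was 1.18 (SE 0.26, limma adjusted p = 0.00455), or 2.27-fold. For these 3 mRNAs the clone 1 gradient was the lowest of the KO values.

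The methyltransferases Kmt2a and Kmt2d rose as well. Kmt2a stood at 0.0023, 0.73 and 0.94 in WT and at 1.78, 1.67 and 1.63 in KO. The WT gradients were widely spread, with gradient 1 well below the others, and the KO gradients lay together, with clone 1 the highest. The change of Kmt2a was 1.13 (SE 0.27, limma adjusted p = 0.00753). Kmt2d, the longest member, had the highest mean ratio in both genotypes, with gradients at 1.46, 1.01 and 1.83 in WT and 2.38, 2.49 and 2.58 in KO. Its change was 1.08 (SE 0.24, limma adjusted p = 0.00472), and it fell to 0.83 (adjusted p = 0.0624) without WT gradient 2. Over all alternatives the adjusted p of Kmt2d ran from 0.000299 to 0.433. Kmt2d was the 1 raised member whose call was lost by leaving out a single gradient. The calls for Chd4 (limma adjusted p = 0.0497) and Kmt2a (adjusted p = 0.0472) held only narrowly without KO gradient 3.

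The other 5 members did not pass the test, with intervals that leave room for sizeable changes in some of them. Chd7 stood at 0.45, 0.39 and 1.10 in WT and at 1.50, 1.38 and 1.52 in KO, so its groups did not overlap, but the change of 0.85 (95% interval 0.10 to 1.60) had a limma adjusted p of 0.104. Chd9 gave 0.12, 1.10 and 0.94 in WT and 1.43, 0.78 and 1.16 in KO, with a difference of 0.39 (95% interval -0.42 to 1.19, adjusted p = 0.516). These are the members with the fewest counts, and their groups differed by no more than the spread allows to be called. Chd1 stood at 0.21, 0.48 and 0.59 in WT and at 0.80, 0.61 and 0.82 in KO, close together but not overlapping, with a difference of 0.32 (95% interval -0.087 to 0.72, adjusted p = 0.267). Smarca5, the ISWI motor, gave 0.57, 0.47 and 1.08 in WT and 1.02, 0.70 and 1.10 in KO, with a difference of 0.25 (95% interval -0.18 to 0.67, adjusted p = 0.418). For Smarca5 the groups overlapped. Chd2 gave 0.070, 0.20 and 0.57 in WT and 0.46, 0.25 and 0.76 in KO, with a difference of 0.22 (95% interval -0.36 to 0.80, adjusted p = 0.617). Of the 2 members with a seed match, Kmt2a was thus raised and Chd2 was not called, and the difference between them was not tested. Among members without a match, Chd8, Smarca4, Chd4 and Kmt2d were raised and Chd1, Chd7, Chd9 and Smarca5 were not called.

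**Figure D2:**
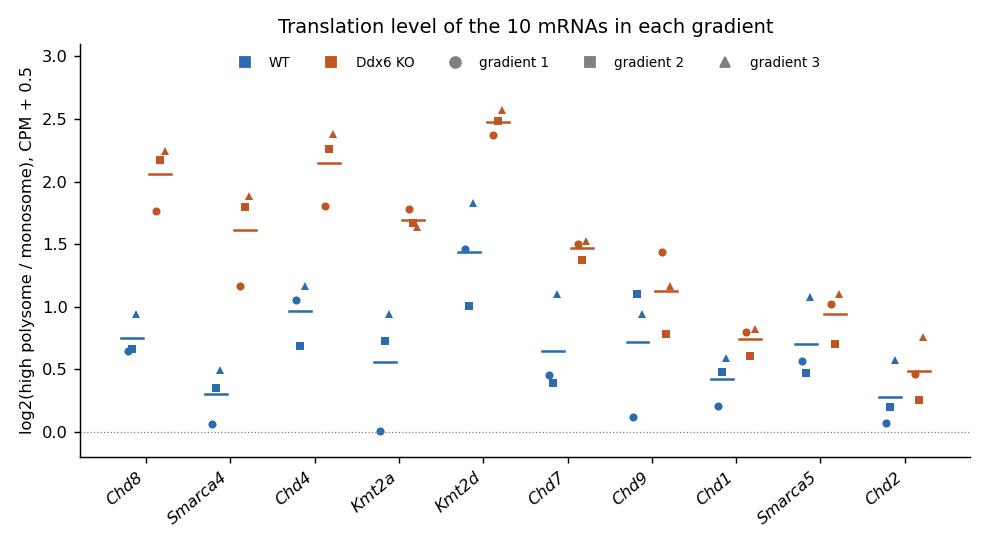
Log2 of high polysome over monosome CPM, each with 0.5 CPM added, for the 10 mRNAs in each WT (blue) and Ddx6 KO (orange) gradient, ordered by the fitted change, with circles, squares and triangles for gradients 1, 2 and 3 and a bar at the mean of 3. The orange points lie clear of the blue points for 7 members, and they mix for Chd9, Smarca5 and Chd2.

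To see at which step of the gradient the change lay, the low polysome was set against the monosome and the high polysome against the low polysome. From monosome to low polysome no member was called in either direction, where 2.31% of all genes were called raised and 2.39% lowered. The changes ran from -0.35 (SE 0.38, limma adjusted p = 0.657) for Chd9 to 0.27 (SE 0.26, adjusted p = 0.609) for Chd4, and KO and WT gradients overlapped for all 10 members, whereas KO lay wholly above WT for 12.8% of all genes and wholly below for 12.0%. Kmt2d shows the pattern, with log2 ratios of 2.06, 1.41 and 2.23 in WT and 2.07, 1.98 and 2.03 in KO. Single estimates of this step turned sign without 1 gradient for Chd7, Kmt2a, Kmt2d and Smarca5, all of them close to 0.

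From low to high polysome, the same 5 members were raised that were raised in translation level, and none was lowered, where 3.39% of all genes were called raised and 1.03% lowered. Both measures share the high polysome libraries, so they are not separate evidence. The median change was 0.82 over the members and -0.0015 over all genes. In 9 members, all but Smarca5, the KO gradients lay above the WT gradients, where 17.7% of all genes did so. Chd8 went from log2 ratios of -0.43, -0.33 and -0.62 in WT to 0.42, 0.80 and 0.87 in KO, a change of 1.16 (SE 0.25, limma adjusted p = 0.0131). Smarca4 went from -0.65, -0.79 and -0.75 to 0.070, 0.37 and 0.66, a change of 1.10 (SE 0.22, adjusted p = 0.00832). Kmt2d went from -0.60, -0.41 and -0.40 to 0.31, 0.51 and 0.55, a change of 0.94 (SE 0.18, adjusted p = 0.00675). These 3 members lay below 1 in every WT gradient and above 1 in every KO gradient, as did 2.91% of all genes and 13.9% of those with a coding length over 3000 nt.

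Kmt2a rose by 1.01 (SE 0.24, limma adjusted p = 0.0238) but only to about equal CPM in the 2 polysome fractions, with KO values of -0.087, 0.031 and 0.038. Equal CPM is the ratio of a typical gene and does not mean equal amounts of mRNA in the fractions. Chd4 rose by 0.92 (SE 0.26, adjusted p = 0.0447), from values already above 1 in WT. This call lay close to the threshold and was lost in 10 of 14 alternative fits, among them DESeq2 size factors (adjusted p = 0.0583) and the compared groups alone (adjusted p = 0.120), with adjusted p from 0.0209 to 0.376 over all of them. Chd2 kept a high over low ratio below 1 in every KO gradient (-0.52, -0.80 and -0.49), with a change of 0.51 (SE 0.25, adjusted p = 0.244). Chd7 (0.69, adjusted p = 0.142), Chd9 (0.73, adjusted p = 0.153), Chd1 (0.43, adjusted p = 0.178) and Smarca5 (0.30, adjusted p = 0.402) were not called. The calls of this step rest on few gradients. Leaving out WT gradient 1 or KO gradient 3 left no member called, leaving out WT gradient 2 left 1, and leaving out KO gradient 2 left 2. The estimates kept their sign throughout these refits, and without KO gradient 3 that of Chd8 was 1.08 (adjusted p = 0.136, against 0.0131 with all gradients).

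**Figure D3:**
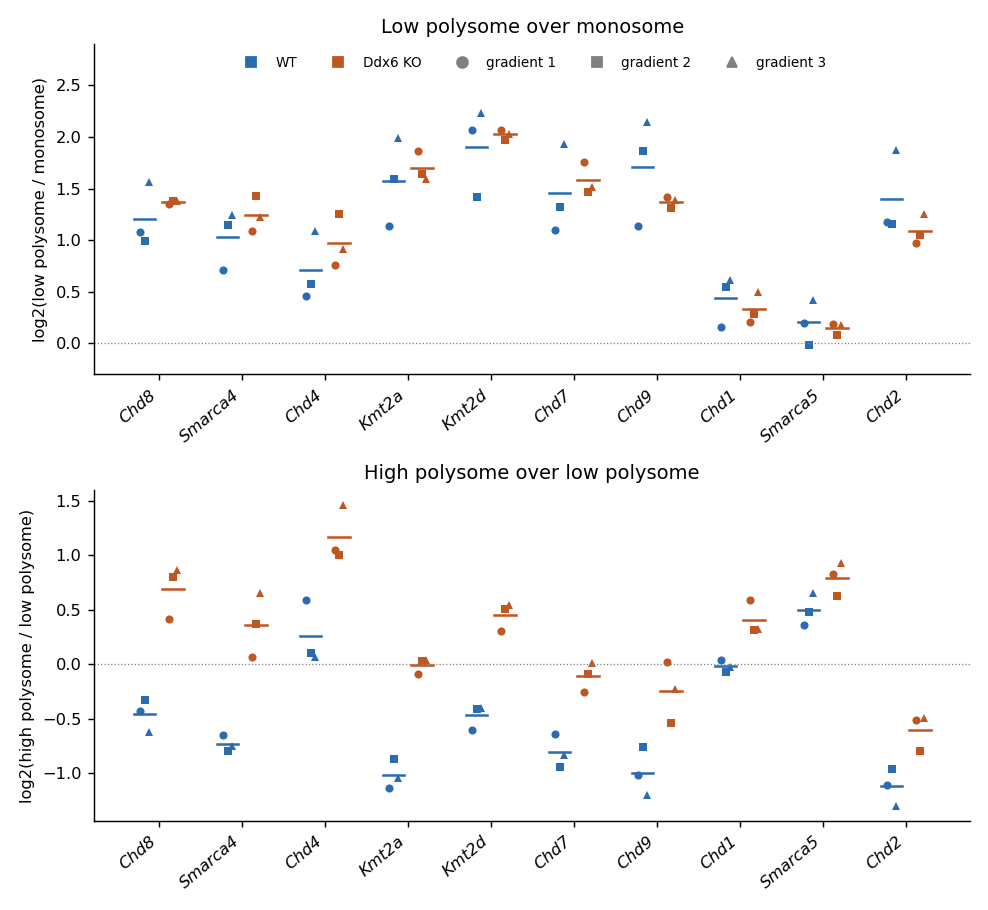
Log2 ratios of CPM, each with 0.5 CPM added, of low polysome over monosome (top) and of high over low polysome (bottom) for the 10 mRNAs in each WT (blue) and Ddx6 KO (orange) gradient, with circles, squares and triangles for gradients 1, 2 and 3 and a bar at the mean of 3. The genotypes overlap for all 10 members at the top, and the orange points lie above the blue ones for 9 members at the bottom.

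KO was next compared with WT within each fraction, which asks whether the ratio moved through a gain in the high polysome or a loss from the monosome. CPM in a fraction is relative to the other mRNAs of that fraction, and fewer cells of a type and less RNA per cell cannot be told apart in such libraries. In the high polysome 6 members were higher in KO (Chd4, Smarca4, Chd8, Kmt2a, Chd7 and Kmt2d), where 25.3% of all genes were called raised, and none was called lower, where 21.1% were. With a coding length over 5000 nt, 39.5% of genes were raised and 9.72% lowered. From 3000 to 5000 nt, 44.3% were raised and 11.1% lowered. Chd4 rose most, from 602, 458 and 698 CPM in WT to 1114, 1474 and 1567 CPM in KO. That is a change of log2 1.25 (SE 0.18, limma adjusted p = 1.25e-05), and every KO library lay above every WT library. Smarca4 went from 92.4, 80.8 and 102.7 CPM to 140.4, 207 and 195 CPM, a change of 0.96 (SE 0.15, adjusted p = 4.30e-05). Chd8 went from 67.6, 80.0 and 99.8 CPM to 124.6, 174 and 183 CPM, a change of 0.95 (SE 0.18, adjusted p = 0.000171). Both also lay clear of WT in every KO library.

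Kmt2a rose in the high polysome from 51.9, 76.0 and 91.2 CPM to 128.6, 143 and 141.5 CPM, a change of 0.94 (SE 0.17, limma adjusted p = 0.000176). Chd7 rose from 10.0, 12.9 and 15.3 CPM to 17.1, 20.9 and 20.9 CPM, a change of 0.62 (SE 0.20, adjusted p = 0.0136). Kmt2d rose less, from 38.2, 39.2 and 41.8 CPM to 49.1, 55.8 and 50.6 CPM, a change of 0.38 (SE 0.13, adjusted p = 0.0180). The last 2 calls were lost without WT gradient 1, without KO gradient 2 or without KO gradient 3. Chd2 (-0.40, SE 0.18, adjusted p = 0.0745) and Smarca5 (-0.28, SE 0.14, adjusted p = 0.0916) had negative estimates that did not pass the test, and they were called lower with DESeq2 size factors (adjusted p = 0.0367 and 0.0353), by the DESeq2 Wald test and without WT gradient 1.

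In the monosome 4 members were called lower in KO, where 20.1% of all genes were, and none was called higher, where 18.6% were. Genes with a coding length over 5000 nt had 23.6% called lower and 5.95% higher. Kmt2d stood at 13.5, 19.3 and 11.4 CPM in WT and at 9.06, 9.55 and 8.08 CPM in KO, a change of -0.70 (SE 0.20, limma adjusted p = 0.00961). Chd2 stood at 35.4, 46.5 and 37.9 CPM in WT and at 27.0, 27.3 and 23.9 CPM in KO, a change of -0.62 (SE 0.21, adjusted p = 0.0253). Smarca5 (-0.53, SE 0.15, adjusted p = 0.00887) and Chd1 (-0.37, SE 0.15, adjusted p = 0.0490) were the other called members. The call for Chd1 was lost in 9 of 14 alternative fits, including each of the 6 that left out a gradient, with adjusted p from 0.0272 to 0.388 over all of them. None of the 4 calls held without WT gradient 2, 1 held without KO gradient 3 and 2 held without KO gradient 1. WT monosomes were also the shallowest libraries, and the part of depth in this result was not tested. Chd4 had nearly the same level in both genotypes, with 290, 285 and 312 CPM in WT and 318, 307 and 301 CPM in KO, and a difference of 0.064 (95% interval -0.32 to 0.45).

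The low polysome showed the same 4 members lower in KO, where 24.3% of all genes were called lower, and no member higher, where 23.4% were. Among genes with a coding length over 5000 nt, 39.5% were called lower and 9.33% higher. Chd2 fell most, from 80.7, 104 and 139.9 CPM in WT to 53.7, 57.0 and 57.4 CPM in KO, a change of -0.91 (SE 0.17, limma adjusted p = 0.000214). Smarca5 went from 74.2, 81.0 and 91.3 CPM to 55.0, 55.4 and 54.0 CPM, a change of -0.58 (SE 0.14, adjusted p = 0.00218). Kmt2d (-0.56, SE 0.13, adjusted p = 0.00133) and Chd1 (-0.48, SE 0.13, adjusted p = 0.00480) fell as well. The members can be sorted by their calls alone, and differences between members were not tested. Chd4, Smarca4, Chd8, Kmt2a and Chd7 were raised in the high polysome with no call elsewhere, Kmt2d was lower in the lighter fractions and higher in the high polysome, and Chd1, Chd2 and Smarca5 were lower in the lighter fractions with no call in the high polysome. Chd9 was called in no fraction. This sorting follows the threshold, since in the monosome Chd8 (-0.38, limma adjusted p = 0.161) was not called and Chd1 (-0.37, adjusted p = 0.0490) was.

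**Figure D4:**
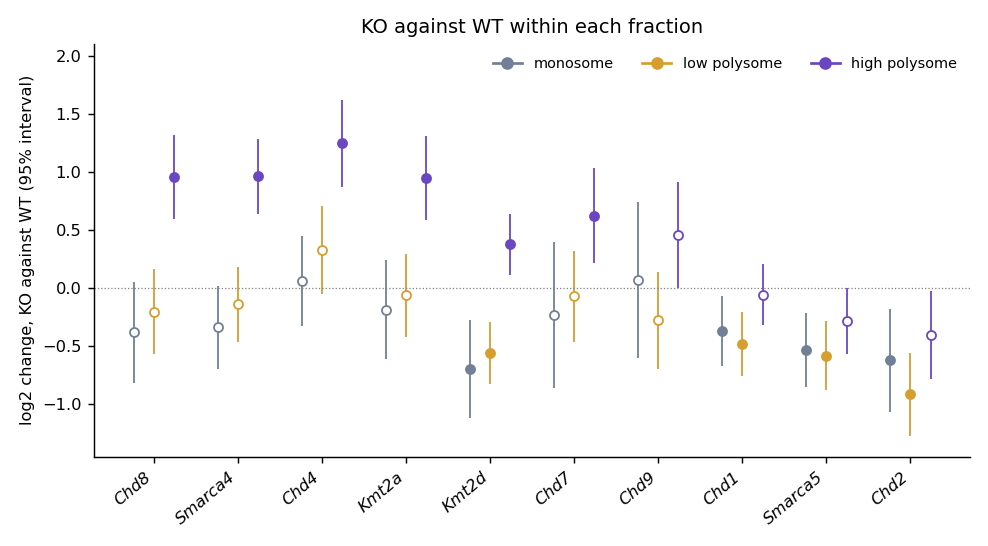
Log2 change of KO against WT with its 95% interval in the monosome (grey), low polysome (yellow) and high polysome (purple) for the 10 mRNAs, with filled points where the limma adjusted p was under 0.05 and open points elsewhere. Chd4, Smarca4, Chd8 and Kmt2a have filled points in the high polysome and open points in the lighter fractions, and all 3 points of Chd2 and Smarca5 lie below 0.

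The members were chosen for long coding sequences, and long mRNAs as a class moved the same way, so the members were set beside genes of like length. Among the 504 tested genes with a coding length over 5000 nt, 29.8% were called raised in translation level and 0.198% lowered, with a median change of 0.65. The 8 members in that class had 4 raised. In the class of 3000 to 5000 nt, 26.6% of 1114 genes were raised, with a median of 0.51, and Smarca4 was raised while Smarca5 was not. Genes of up to 1000 nt had 1.50% raised and 18.9% lowered, with a median of -0.40. For the step from low to high polysome, 24.0% of genes over 5000 nt were called raised, with a median change of 0.68. The members' values thus stood among those of other long mRNAs, with Chd8, Chd4, Kmt2a and Kmt2d above the upper quartile of the longest class (0.97) and Chd1, Chd2 and Chd9 below its median.

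When the trend with coding length was removed within each library before the fit, 2 members were still called raised in translation level. Chd8 kept a change of 0.75 (limma adjusted p = 0.0243, with a range over all alternatives of 0.000182 to 0.0353). Smarca4 kept 0.81 (adjusted p = 0.0219, range 1.49e-05 to 0.0228). Chd4 was reduced to 0.66 (adjusted p = 0.0609), Kmt2a to 0.48 (adjusted p = 0.122) and Kmt2d to 0.39 (adjusted p = 0.433). Chd1, Chd2, Chd9 and Smarca5 changed sign to between -0.30 and -0.14, and none of these was called. The median change of the members went from 0.96 to 0.32. Kmt2d and Kmt2a lie at percentiles 99.9 and 99.7 of coding length, where few genes are available to set the trend.

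**Figure D5:**
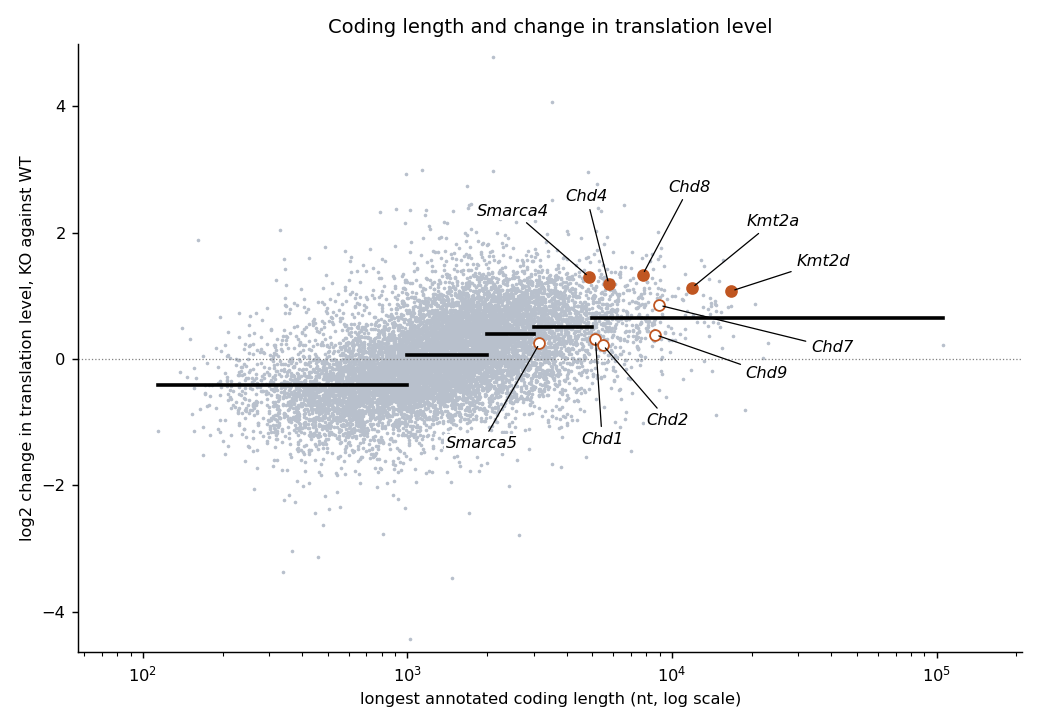
Log2 change in translation level of KO against WT (vertical) by longest annotated coding length in nt (horizontal, log scale) for the tested genes with a coding length (grey), the 5 raised members (filled orange) and the other 5 (open orange), with black bars at the median of each of 5 length classes. The class medians go from -0.40 in the shortest class to 0.65 in the longest, and all 10 members lie above 0.

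The subunits and relatives of the members were taken from lists of chromatin complexes. Of 105 tested genes on 8 lists, 19 were raised and 3 lowered in translation level, with a median change of 0.27. Over all tested genes 10.7% were raised and 7.09% lowered. Split by length, 12 of the 43 listed genes with a coding sequence over 3000 nt were raised and none lowered, and 3 of the 37 of up to 1500 nt were raised and 3 lowered. Among all tested genes, 26.6% of those of 3000 to 5000 nt and 29.8% of those over 5000 nt were raised. None of the 4 other CHD genes was called. Chd3, the alternative NuRD motor to Chd4, had a change of 0.74 (limma adjusted p = 0.0819), while its level rose in KO in both the monosome (1.25, adjusted p = 0.000212) and the high polysome (1.99, adjusted p = 3.37e-08). Smarca2, the paralog of Smarca4, had a change in translation level of 0.57 (adjusted p = 0.309) and was likewise higher in KO in the monosome (0.84, adjusted p = 0.0353) and the high polysome (1.42, adjusted p = 3.19e-05). In the monosome Chd4 (0.064) and Smarca4 (-0.34) themselves were not called.

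Set beside 10.7% raised and 7.09% lowered over all genes, 4 of 12 NuRD subunits among the partners were raised and none lowered. They were Gatad2b (0.94, limma adjusted p = 0.00320), Rbbp7 (0.76, adjusted p = 0.00525), the deacetylase Hdac1 (0.52, adjusted p = 0.0423) and Gatad2a (0.45, adjusted p = 0.0476), while Mbd3 (0.31, adjusted p = 0.374) was not called. Of 23 BAF and PBAF subunits, 3 were raised, namely the DNA-binding subunits Arid1a (1.09, adjusted p = 0.00161) and Arid1b (0.89, adjusted p = 0.0188) and the core subunit Smarcc2 (0.65, adjusted p = 0.00902). Smarcc1 (0.62, adjusted p = 0.0728) and Smarcb1 (0.14, adjusted p = 0.725) were not called. Of 9 ISWI partners, Bptf (0.87, adjusted p = 0.0349) and Baz2a (0.65, adjusted p = 0.0131) were raised and Pole3 was lowered (-0.80, adjusted p = 0.00320). The methyltransferase Kmt2b was raised (1.12, adjusted p = 0.00251), the only called gene of 5 on its list, and Kmt2c was not (0.85, adjusted p = 0.283). Of 12 COMPASS subunits, Kdm6a, a demethylase that works beside KMT2D, was raised (0.89, adjusted p = 0.0357), Dpy30 was lowered (-0.82, adjusted p = 0.0193), and Wdr5 was not called (-0.078, adjusted p = 0.828). Of 16 other Snf2-type ATPases, Ercc6l (1.44, adjusted p = 0.0180), Ep400 (1.11, adjusted p = 0.000634) and Ttf2 (0.49, adjusted p = 0.0361) were raised, and Smarca1 did not pass the filter on low counts. Of 24 INO80, SRCAP and TIP60 subunits, 5 were raised, led by the scaffold Trrap (1.15, adjusted p = 0.00604) and Dmap1 (0.99, adjusted p = 0.0182), with Epc1 (0.96), Brd8 (0.91) and Ino80d (0.80) behind them, and Ino80c was lowered (-0.53, adjusted p = 0.0428). Coding lengths of the raised genes on the lists ran from 1278 nt (Rbbp7) to 11580 nt (Trrap), and the 4 raised NuRD subunits had 1278 to 1893 nt. The lowered genes had 300 nt (Dpy30), 438 nt (Pole3) and 696 nt (Ino80c).

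The members also resembled each other over the 18 libraries. Pearson correlations of log2 CPM of each member with the mean of the other 9 were 0.96 for Chd8, 0.94 for Chd7, Kmt2a and Kmt2d, 0.91 for Smarca4, 0.88 for Chd9, 0.79 for Chd1, 0.73 for Chd4, 0.63 for Chd2 and 0.50 for Smarca5. Chd2 and Smarca5 were also the members with the smallest changes in translation level. Those changes come from the same 18 libraries as the correlations, so the match is not separate evidence. It did not hold for every member, since Chd4, raised by 1.18, correlated less than Chd1 and Chd9, which were not called. Among the genes whose profile was most like the mean of the members were Herc2 (r = 0.982), Pcnt (r = 0.981), Ubr4 (r = 0.975) and Dicer1 (r = 0.963). These 4 have long coding sequences, from 5721 nt for Dicer1 to 15543 nt for Ubr4. These correlations describe libraries that share fraction, genotype and depth.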

How the data were processed

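QuantSeq 3′ FWD libraries were made by the authors from each fraction, and the table they deposited holds raw read counts per gene. Per the labels and the file headers, reads were trimmed with cutadapt 1.14, aligned to mm10 with STAR 2.5.3a, restricted to unique alignments and counted by strand with featureCounts 1.5.3 on the Gencode M14 basic annotation with 92 ERCC spike-ins. No molecular identifiers are named, so PCR copies remain in the counts, and reads shared between near-identical copies were lost. Total counts were 2543617 to 11474550 per library. Spike-ins (28 to 169 counts per library) were left out.

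TMM scaling used edgeR 4.0.16 in R 4.3.3. A linear model with a mean for each of the 6 groups was then fitted by limma 3.58.1 with voom weights to all 18 libraries, with two-sided tests and Benjamini-Hochberg adjustment over the 12705 genes with at least 3 CPM in at least 3 libraries. Limma, that filter and an interaction term are what the methods of the study name, while TMM, voom and the joint fit were chosen here. The script was tested on simulated counts. Changes are therefore relative to a typical gene. Ratios of single gradients used a pseudocount of 0.5 CPM. Annotation came from Gencode M21, which matched 51274 of 51467 identifiers. The members, gene lists and tests were chosen with earlier results of these data known. Genes named beside the members were Ddx6, the paralogs and partners Chd3, Smarca2, Smarca1, Kmt2b, Kmt2c, Arid1a, Bptf, Hdac1, Mbd3, Wdr5, Smarcc1 and Smarcb1, the 2 called genes with the largest change in translation level on each list, and genes from the 5 most like the members' mean profile, of which 1 is not reported here. Ttf2, Smarcc2, Gatad2a, Baz2a, Epc1, Brd8, Ino80d and Ino80c lie outside this rule and were named after their values were seen, to complete short counts.

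No pair of libraries of a group agreed within sampling noise (chi-square per degree of freedom at least 3.48). The fractions of a gradient share its number in the labels, and the deviations of same-gradient libraries from their group means correlated at -0.18 to 0.48, with 7 of 18 pairs over 0.1. No label states whether equal numbers across genotypes mark a shared day or batch. Libraries with equal numbers in the 2 genotypes correlated at -0.51 to 0.44, with 10 of 27 pairs over 0.1. Alternatives were DESeq2 size factors, library size alone, no filter, edgeR quasi-likelihood, the DESeq2 1.42.0 Wald test, a fit of the compared groups only, gradient as a block, removal of the coding-length trend, each gradient left out, and pseudocounts of 0.1 and 2 CPM.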

Additional observations from a re-analysis of the deposited data

Results flagged for a closer look

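A difference between the genotypes in a fraction ratio passed the interaction test for 5 members, and each was the larger in KO. For high polysome over monosome the log2 differences were 1.34 for Chd8, 1.30 for Smarca4, 1.18 for Chd4, 1.13 for Kmt2a and 1.08 for Kmt2d. For high over low polysome they were 1.16 for Chd8, 1.10 for Smarca4, 1.01 for Kmt2a, 0.94 for Kmt2d and 0.92 for Chd4. For each of these 10 differences all 3 KO gradients lay above all 3 WT gradients. The differences were picked by a test on the same gradients, so this separation is not separate evidence. Of all genes, 21.2% met the pattern for high polysome over monosome and 17.7% for high over low polysome.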

How the results depend on the processing

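Of 1120 refitted values of single members, 996 kept their direction and their side of the threshold, 82 lost a call, 17 gained one and 25 changed sign. With gradient as a replicate block no member changed its call in any comparison, and 5 members stayed raised in translation level. Library size alone and no filter moved the median change in translation level of all genes from 0.022 to -0.10 and 0.26, and left 5 members raised.

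Removing the coding-length trend left 2 members raised in translation level, 0 from low to high polysome and 5 in the WT translation level, with 1 member lower in the KO monosome, 2 higher and 2 lower in the low polysome and 3 lower in the high polysome. It turned the sign of Chd1 (-0.19), Chd2 (-0.30), Chd9 (-0.22) and Smarca5 (-0.14) in translation level, of Chd1 (-0.068) and Chd2 (-0.0064) from low to high polysome, of Chd2 in the KO translation level (-0.19), of Chd7 (0.12) and Kmt2a (0.24) in the monosome, and of Chd7 (0.34), Chd8 (0.16), Chd9 (0.12), Smarca4 (0.065), Kmt2a (0.44) and Kmt2d (0.050) in the low polysome. The median of the members became 0.32 in translation level, 0.12 from low to high polysome, 0.33 in the WT and 0.57 in the KO translation level, -0.094 for the monosome and 0.095 for the low polysome.

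Members lower in the high polysome numbered 2 with DESeq2 size factors and 2 by the DESeq2 Wald test, members lower in the monosome 2 with library size alone and 1 without the filter, and members raised from low to high polysome 2 with the compared groups only. The cause was not tested. Leaving out each gradient gave 4 to 5 members raised in translation level, 0 to 5 from low to high polysome, 4 to 9 in the WT and 9 to 10 in the KO translation level, 0 to 3 lower in the monosome, 0 to 1 higher and 4 to 5 lower in the low polysome, and 4 to 7 higher and 0 to 2 lower in the high polysome. The estimates that turned sign over these refits, none of them called, were low polysome over monosome of Chd7 (-0.057 to 0.45), Kmt2a (-0.097 to 0.33), Kmt2d (-0.14 to 0.36) and Smarca5 (-0.16 to 0.074), and, within fractions, Chd9 in the monosome (-0.038 to 0.14), Chd7 (-0.31 to 0.087), Chd8 (-0.35 to 0.026) and Kmt2a (-0.23 to 0.13) in the low polysome and Chd1 in the high polysome (-0.21 to 0.055). Depth limits Chd7, Chd9 and Kmt2d most, with as few as 18 counts in a library.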
